A study of Mus musculus with 6 samples.

Results

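The mitochondrial genome of the mouse encodes 37 transcripts, and all 37 were rows of the deposited count table, where they made up 37 of 43629 genes. They were defined by position, as every row placed on the mitochondrial chromosome MT, and they fall into 13 protein-coding genes, 2 rRNA genes and 22 tRNA genes. Each is annotated on GRCm38 as a single interval with no intron.

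The libraries came from T cells sorted out of subcutaneous B16-OVA tumours, an ovalbumin-expressing mouse melanoma line, grown in C57BL/6 mice. Tumours were taken on day 14 and pooled, and T cells (CD8+ and TCR+ in the design text, TCR beta and CD3 in the sort described for extraction) were separated by staining with L-Pha, a plant lectin that binds branched N-glycans on the cell surface. The groups were L-Pha low (3 libraries) and L-Pha high (3 libraries), and strain, tumour, day and sort for T cells were the same in both. No genotype, drug or age was given in the labels, and the libraries carry numbers 1 to 3 in each group without a statement of whether they came from separate pools, so the p-values given here rest on how far libraries of a group lay apart, and that spread may be technical.

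RNA was read with QuantSeq, a 3′ method that primes from adenine runs with oligo(dT). The 6 libraries held 2610729 to 3521117 counts, and 11183 genes had enough counts to be tested. The 11 T cell identity genes fixed as markers, none of them at 0 in all libraries, summed to 0.0334% to 0.0839% of counts, lowest in the libraries numbered 3, while 8 melanoma genes summed to 0.946% to 1.80%, above the T cell sum in every library. Cd4 reached at most 0.000114% of counts. Gm42418, a gene model that overlaps a ribosomal RNA repeat, held 9.59% to 25.0% of counts and was highest in L-Pha low 2.

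Mitochondrial DNA is transcribed from both strands into long precursors that cover most of the genome. Cutting at the tRNAs that sit between the other genes releases rRNAs and mRNAs, most of which then receive a poly(A) tail. The mRNAs encode core subunits of respiratory complexes I, III, IV and V, which are assembled together with subunits made from nuclear genes, and activated T cells are known to raise mitochondrial content and respiration.

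The gene order shows how closely the members are packed. Of 36 neighbouring pairs, 9 overlapped, 6 of them on the same strand. The heavy-strand transcript, listed on the plus strand, carried 28 members and the light-strand transcript 9. The authors assigned a read to every gene it overlapped, per the file header, so a read across a junction counts for both neighbours. The junction at MT:9361-9488 (plus strand) is shown because the genes on it had some of the largest differences between the groups: the end of mt-Co3, the whole of mt-Tg in capitals and the start of mt-Nd3 follow each other with 0 bases between.
mt-Co3/mt-Tg/mt-Nd3: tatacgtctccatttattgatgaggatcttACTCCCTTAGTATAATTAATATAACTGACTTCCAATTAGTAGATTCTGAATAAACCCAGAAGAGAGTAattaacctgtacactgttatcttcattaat
The stretch at MT:7897-7999 is shown for the overlap of mt-Atp8 and mt-Atp6, whose 43 shared bases are in capitals.
mt-Atp8/mt-Atp6: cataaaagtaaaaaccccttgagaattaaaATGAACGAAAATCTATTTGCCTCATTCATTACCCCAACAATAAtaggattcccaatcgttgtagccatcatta

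Of the 13 protein-coding genes as annotated, 10 ended in a full stop codon. In mt-Nd1 and mt-Nd2 its last 2 bases also belong to the tRNA gene that follows. The other 3 (mt-Co3, mt-Nd4 and mt-Cytb) ended in a lone T, which becomes a stop codon only once the poly(A) tail is added. The last bases of mt-Nd4 (MT:11515-11544) and mt-Cytb (MT:15259-15288) show this, with that T in capitals.
mt-Nd4: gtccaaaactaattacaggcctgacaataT
mt-Cytb: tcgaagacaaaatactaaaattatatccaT
Runs of 6 or more A within the gene were found in 8 members, 5 of them protein-coding and 2 of them tRNA genes, with mt-Rnr2 the other. The longest run in a protein-coding gene was the 8 bases in mt-Nd2 (within MT:4022-4089), and mt-Rnr2, the member with the most counts, held one of 7 bases (within MT:1458-1524); both runs are in capitals.
mt-Nd2: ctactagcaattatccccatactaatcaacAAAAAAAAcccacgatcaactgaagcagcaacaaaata
mt-Rnr2: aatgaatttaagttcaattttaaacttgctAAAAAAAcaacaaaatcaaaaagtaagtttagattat
All sequences are GENCODE M21 transcripts on GRCm38, written 5′ to 3′.

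The shares of counts on mitochondrial transcripts overlapped between the groups. They held 4.396%, 3.12% and 3.75% of counts in L-Pha low 1, 2 and 3, against 3.95%, 2.42% and 3.75% in L-Pha high 1, 2 and 3. The mean was 3.76% ± 0.636 (SD, n = 3) in L-Pha low and 3.38% ± 0.830 (SD, n = 3) in L-Pha high, a difference of −0.382 percentage points that is smaller than the spread within either group. L-Pha high 2 was the lowest library, and the others overlapped. The exact 95% binomial interval of each share (Clopper-Pearson) was narrow, 2.41% to 2.44% in L-Pha high 2 for example, and covers counting error only, since the reads carry no molecular identifiers. In bulk libraries such as these, fewer cells of a type and less RNA per cell cannot be told apart.

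**Figure D1:**
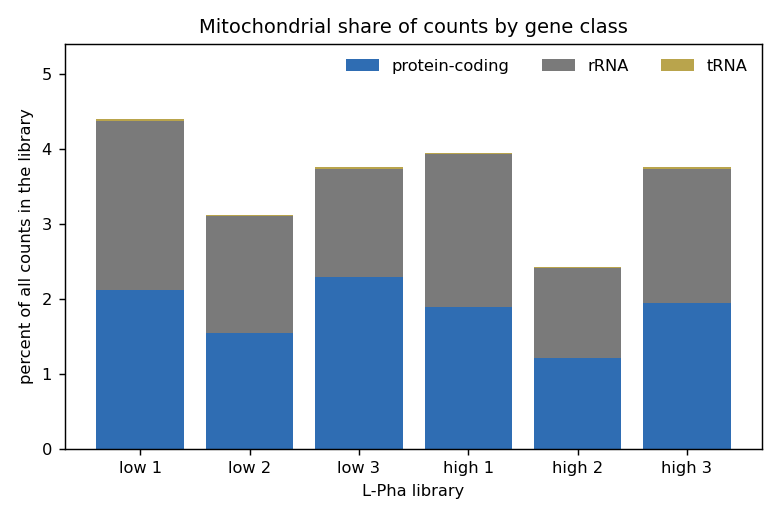
Percent of all counts in each of the 6 libraries that fell on mitochondrial protein-coding, rRNA and tRNA genes (stacked bars from 0, 1 library per bar, no error bars since each is a single value). The total runs from 2.42% in L-Pha high 2 to 4.396% in L-Pha low 1, and the groups overlap.

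The share without 1 library depended on which one was left out. The difference, L-Pha high minus L-Pha low, was 0.0933 percentage points with the second L-Pha high library left out. It was −0.669 with the first and −0.572 with the third of that group left out. Leaving out L-Pha low 1, 2 or 3 gave −0.0633, −0.700 and −0.385 points in turn. With Gm42418 left out of the totals, the shares were 4.52% ± 0.536 in L-Pha low and 3.86% ± 0.896 in L-Pha high (SD, n = 3 each), a difference of −0.660 points, and the groups still overlapped. Protein-coding genes took 1.98% ± 0.390 of counts in L-Pha low and 1.69% ± 0.412 in L-Pha high, rRNA genes 1.76% ± 0.438 and 1.67% ± 0.427, and tRNA genes 0.0204% ± 0.00304 and 0.0175% ± 0.00408 (SD, n = 3 each). None of these classes separated the groups.

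Markers of other cells differed between the same libraries. The 8 melanoma genes held 1.20% ± 0.393 of counts in L-Pha low and 1.46% ± 0.308 in L-Pha high, and the 11 T cell genes 0.0663% ± 0.0285 and 0.0603% ± 0.0135 (SD, n = 3 each). Of 10 T cell genes tested, 9 had a log2 fold change under 0 and 1 above 0, against 50.6% of all genes under 0. The median of these T cell genes was −0.31, and 0 were called, where 0.00894% of all tested genes were. The 4 globin genes, markers of red cells, held 0.234% ± 0.0682 in L-Pha low and 0.159% ± 0.0759 in L-Pha high, lowest in L-Pha high 2 at 0.0763%, the library that also had the lowest mitochondrial share. The 8 macrophage genes held 0.0244% ± 0.00316 in L-Pha low and 0.0320% ± 0.00773 in L-Pha high, with overlap; of 7 tested, 6 had a log2 fold change above 0, 0 were called, and the median was 0.42. The 4 neutrophil genes held 0.00201% ± 0.00149 and 0.00403% ± 0.00111 (SD, n = 3 each), with overlap of the sums. Those sums rest on only 26 to 175 counts per library. Just 1 neutrophil gene was tested, and it stood higher in L-Pha high without overlap (log2 fold change 1.87). The same position was held by 4.25% of all tested genes, and the neutrophil gene did not pass the test across all genes. The part of these cells in the mitochondrial values was not tested.

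No single mitochondrial transcript differed between L-Pha high and L-Pha low at an adjusted p under 0.05 (edgeR's quasi-likelihood test, Benjamini-Hochberg adjustment over all 11183 genes tested). Of the 37 members, 25 passed the filter on low counts, and 0 of 25 were called lower, where 1 of all tested genes was (0.00894%), and 0 were called higher, where 0 of all tested genes were (0%). The two-sided unadjusted p was under 0.05 for 2 members on the lower side (mt-Co3 and mt-Tg) and 0 on the higher side, against 1.97% and 1.84% of all genes tested. DESeq2 also called 0 members, where it called 0.197% of all genes lower and 0.0715% higher, and so did limma-voom and limma on the authors' log2 table. The fold change below 0 was the common case: 22 of 25 had a log2 fold change (L-Pha high minus L-Pha low) under 0, against 50.6% of all genes, and their median was −0.21 against −0.0053 for all genes.

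These members are not independent of each other, as they come from shared precursors and, in bulk, from the same mitochondria. L-Pha high 2 had the lowest CPM (counts scaled to a common library size after TMM normalization) of the 6 libraries for 12 of the 15 rRNA and protein-coding members. Without that library, 18 of 25 members had a log2 fold change under 0 and the median was −0.11. The median was −0.33 when L-Pha high 1 was left out, −0.39 when L-Pha high 3 was and −0.38 when L-Pha low 2 was. The 3 libraries of L-Pha high lay below all 3 of L-Pha low for 4 tested members (mt-Nd1, mt-Atp6, mt-Co3 and mt-Tg), against 4.13% of all tested genes, and above them for 0, against 4.25%.

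**Figure D2:**
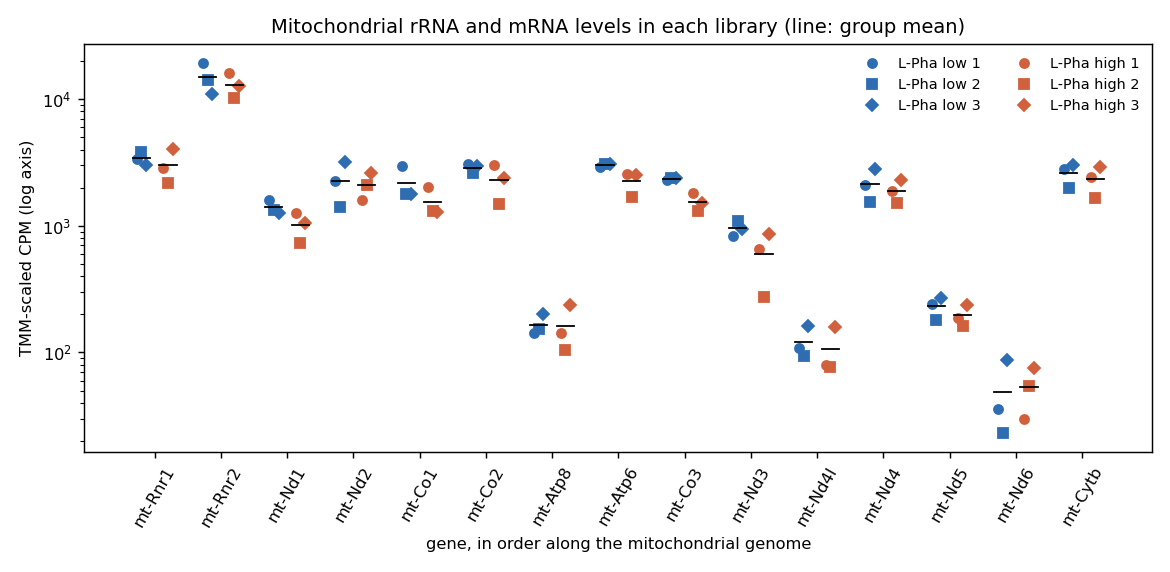
TMM-scaled CPM (log axis) of the 2 rRNA and 13 protein-coding members in each library, in gene order, with L-Pha low in blue, L-Pha high in orange, marker shape for the library number and a line at each group's mean of 3 libraries. L-Pha high 2 (orange squares) is lowest for 12 of the 15 genes, and only mt-Nd1, mt-Atp6 and mt-Co3 show no overlap of the groups.

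The rRNAs of the mitochondrial ribosome overlapped between the groups. mt-Rnr2 (MT:1094-2675), the large-subunit rRNA, stood at 19446, 14103 and 10946 CPM in L-Pha low 1, 2 and 3 and at 16096, 10175 and 12632 CPM in L-Pha high 1, 2 and 3. It was the most counted member, with 30.2% to 43.8% of mitochondrial counts, and its libraries numbered 1 were the highest in both groups. The log2 fold change was −0.19 with an SE of 0.245. mt-Rnr1 (MT:70-1024), the small-subunit rRNA, stood at 3384, 3811 and 3027 CPM in L-Pha low and at 2834, 2186 and 4023 CPM in L-Pha high. L-Pha high held both its lowest and its highest library, and the log2 fold change was −0.18 (SE 0.235). Per kilobase of gene, mt-Rnr2 averaged 8786 CPM and mt-Rnr1 3362 CPM over the 6 libraries; a 3′ method counts tags rather than whole transcripts, so length scaling is only approximate here.

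Complex I, which passes electrons from NADH to ubiquinone, takes 7 subunits from the mitochondrial genome. Their summed share was 0.701% ± 0.204 of counts in L-Pha low and 0.623% ± 0.154 in L-Pha high (SD, n = 3 each), with overlap. mt-Nd3 (MT:9459-9806) had the largest difference of the 7. It stood at 826, 1097 and 945 CPM in L-Pha low 1, 2 and 3 and at 658, 276 and 855 CPM in L-Pha high 1, 2 and 3. L-Pha high 2 was far below the other libraries, and L-Pha high 3 lay within the range of L-Pha low. The log2 fold change was −0.68 (SE 0.321), with an adjusted p of 1.00 by edgeR with Benjamini-Hochberg adjustment, and the log2 fold change was −0.35 without L-Pha high 2 and −1.04 when L-Pha high 3 was left out.

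mt-Nd1 (MT:2751-3707) was at 1588, 1324.5 and 1271 CPM in L-Pha low and at 1257, 736 and 1051 CPM in L-Pha high. The groups did not overlap, but L-Pha low 3 and L-Pha high 1 nearly met, and the log2 fold change was −0.46 (SE 0.230). mt-Nd2 (MT:3914-4951) was at 2243, 1399 and 3172 CPM in L-Pha low and at 1605, 2086 and 2619 CPM in L-Pha high. Its extremes, L-Pha low 2 and L-Pha low 3, were both in one group, and the log2 fold change was −0.11 (SE 0.280).

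mt-Nd4 (MT:10167-11544) and mt-Nd4l (MT:9877-10173) share 7 bases, and both reading frames are carried on the same mature mRNA. mt-Nd4 stood at 2103, 1532 and 2794 CPM in L-Pha low and at 1873, 1502 and 2304.5 CPM in L-Pha high. mt-Nd4l stood at 109, 94.6 and 162 CPM in L-Pha low and at 79.7, 77.2 and 160.2 CPM in L-Pha high. Both were highest in L-Pha low 3 and lowest in L-Pha high 2, with overlap, and their log2 fold changes were −0.18 (SE 0.248) and −0.21 (SE 0.310). mt-Nd5 (MT:11742-13565) stood at 240.5, 181 and 270.35 CPM in L-Pha low and at 186, 163 and 238 CPM in L-Pha high, a log2 fold change of −0.24 (SE 0.238) with overlap. Per kilobase, mt-Nd5 averaged 117 CPM against 1464.5 for mt-Nd4 and 2230 for mt-Nd3.

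mt-Nd6 (MT:13552-14070) is the only protein-coding gene of the light strand, and the only one of the 13 with a log2 fold change above 0. It stood at 36.0, 23.1 and 87.65 CPM in L-Pha low and at 29.6, 54.5 and 75.8 CPM in L-Pha high. L-Pha low held both its lowest and its highest library, and the log2 fold change of 0.12 was small beside its SE of 0.430. Per kilobase it had the lowest CPM of the protein-coding genes, 98.5. Its longest run of A was 3 bases, and how well oligo(dT) priming captured this transcript was not tested.

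Complex III, which passes electrons on to cytochrome c, has mt-Cytb (MT:14145-15288) as its single mitochondrial subunit. It stood at 2810.0, 2003 and 2992 CPM in L-Pha low and at 2431, 1661.5 and 2935 CPM in L-Pha high. L-Pha high 3 was as high as the upper libraries of L-Pha low, and the log2 fold change was −0.15 (SE 0.243).

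Complex IV, cytochrome c oxidase, takes its 3 catalytic-core subunits from the mitochondrial genome. Its summed share was 0.718% ± 0.119 of counts in L-Pha low and 0.564% ± 0.169 in L-Pha high (SD, n = 3 each), with overlap. mt-Co3 (MT:8607-9390) was, of the 15 rRNA and protein-coding members, the most even within L-Pha low, at 2311, 2390.1 and 2378 CPM, and stood at 1821, 1311 and 1507 CPM in L-Pha high. Every library of L-Pha high lay below every library of L-Pha low. The means were 2359.5 ± 42.7 and 1546.5 ± 257 CPM (SD, n = 3 each), 1.53-fold lower in L-Pha high, a log2 fold change of −0.61 (SE 0.201). The adjusted p was 0.887 by edgeR with Benjamini-Hochberg adjustment, the smallest among the members, so the difference did not pass the test across all genes.

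mt-Co1 (MT:5328-6872), the subunit that reduces oxygen, stood at 2949, 1774 and 1778.5 CPM in L-Pha low and at 2037, 1309 and 1291 CPM in L-Pha high. In each group the library numbered 1 was the highest, and L-Pha high 1 lay above L-Pha low 2 and 3. The log2 fold change was −0.49 (SE 0.259). mt-Co2 (MT:7013-7696), which takes electrons from cytochrome c, stood at 3095.5, 2593 and 2949.8 CPM in L-Pha low and at 3020.3, 1494 and 2382 CPM in L-Pha high. The groups overlapped through L-Pha high 1, and the log2 fold change was −0.32 (SE 0.245).

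Complex V, the ATP synthase, takes 2 subunits of its membrane part from the mitochondrial genome, on the overlapping genes printed above. mt-Atp6 (MT:7927-8607) stood at 2920.3, 3071 and 3071 CPM in L-Pha low and at 2540.2, 1691 and 2536 CPM in L-Pha high. The groups did not overlap, and the log2 fold change was −0.42 (SE 0.212). mt-Atp8 (MT:7766-7969) stood at 143, 154 and 202 CPM in L-Pha low and at 143, 104 and 238 CPM in L-Pha high. Its highest and lowest libraries were both L-Pha high ones, and a log2 fold change of −0.040 (SE 0.290) became 0.072 when libraries were scaled by their totals alone. Per kilobase, mt-Atp6 averaged 3874 CPM, the highest of the protein-coding genes, mt-Co2 3785 CPM and mt-Atp8 804 CPM. The order of mt-Atp6 and mt-Co2 is closer than their spread between libraries. Since mt-Atp8 overlaps mt-Atp6 on its 5′ side and a 3′ method counts tags, the value of mt-Atp8 does not measure its transcript level.

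**Figure D3:**
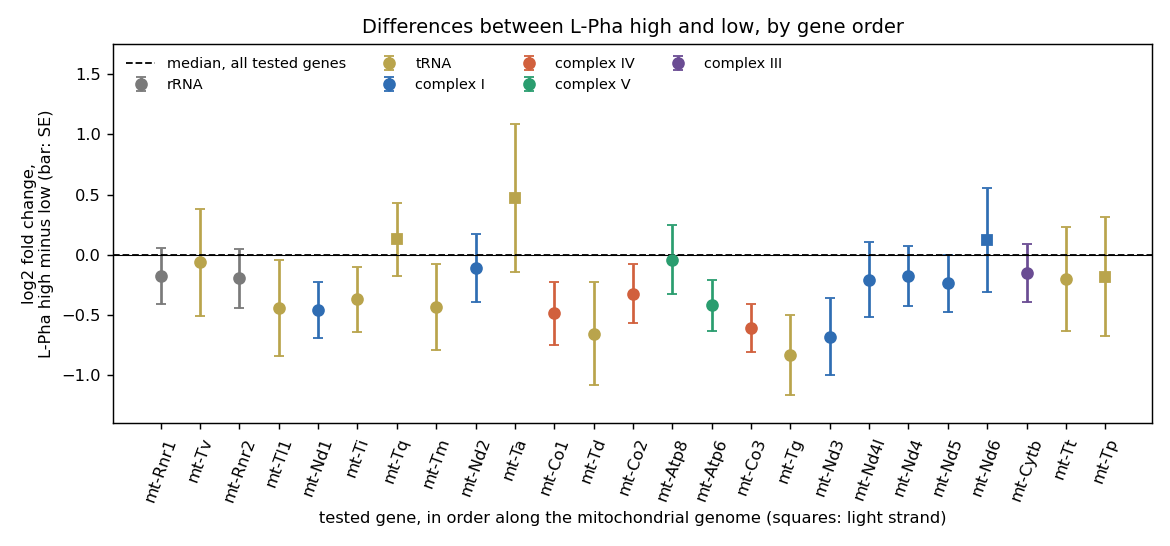
Log2 fold change (L-Pha high minus L-Pha low, edgeR) of the 25 tested members in order along the mitochondrial genome, with bars of 1 SE, colour for gene class and squares for the light strand; the dashed line is the median of all tested genes. The neighbours mt-Co3, mt-Tg and mt-Nd3 lie at −0.61, −0.83 and −0.68, with mt-Td at −0.65 the other low value, and mt-Tq, mt-Ta and mt-Nd6 lie above 0.

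The tRNA genes carried few counts. All 22 together took 0.0129% to 0.0233% of a library, and 12 of 22 were not tested, with 1 to 54 counts each over the 6 libraries and at most 19 in any one. A read is counted for a tRNA gene when it overlaps the tRNA by position, so these counts can include reads of the adjoining mRNA or precursor. mt-Tg (MT:9391-9458), the glycine tRNA, stood at 39.2, 46.6 and 34.0 CPM in L-Pha low and at 33.9, 12.9 and 20.2 CPM in L-Pha high. All 3 libraries of L-Pha high were lower, L-Pha high 1 by little, and the log2 fold change of −0.83 (SE 0.331) was the lowest of the tested members, with an adjusted p of 1.00 by edgeR with Benjamini-Hochberg adjustment. It lies between mt-Co3 and mt-Nd3, and these 3 neighbours were each lowest in L-Pha high 2 and highest in L-Pha low 2. The same held for mt-Atp6, on the other side of mt-Co3. Reads across a junction count for both neighbours, so the values of adjoining genes are not independent.

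The other 6 tested tRNAs of the heavy strand had log2 fold changes under 0 with all libraries and TMM scaling. mt-Tv was above 0 when libraries were scaled by their totals alone, and mt-Tv and mt-Tt were each above 0 in 2 of the fits that left out a library. mt-Ti, for isoleucine, had the most counts of any tRNA and stood at 46.6, 44.5 and 44.01 CPM in L-Pha low and at 32.6, 26.0 and 46.0 CPM in L-Pha high, a log2 fold change of −0.37 (SE 0.266). Only L-Pha high 3 reached the range of L-Pha low. mt-Td, for aspartate, stood at 21.9, 10.01 and 8.51 CPM in L-Pha low and at 11.6, 5.39 and 8.61 CPM in L-Pha high, a log2 fold change of −0.65 (SE 0.429). mt-Tm, for methionine, stood at 31.8, 23.5 and 19.6 CPM in L-Pha low and at 28.8, 14.97 and 11.3 CPM in L-Pha high, a log2 fold change of −0.44 (SE 0.358). For both the library numbered 1 was the highest in its group, and the groups overlapped.

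mt-Tl1, a leucine tRNA that follows mt-Rnr2, stood at 17.0, 10.7 and 22.6 CPM in L-Pha low and at 6.35, 14.97 and 15.9 CPM in L-Pha high, with a log2 fold change of −0.44 (SE 0.397). mt-Tt, for threonine, stood at 23.2, 12.8 and 9.62 CPM in L-Pha low and at 21.2, 11.4 and 6.95 CPM in L-Pha high. Within each group it was highest in library 1 and lowest in library 3, and the log2 fold change was −0.20 (SE 0.431). mt-Tv, for valine, stood at 9.003, 11.04 and 8.51 CPM in L-Pha low and at 14.0, 3.59 and 9.60 CPM in L-Pha high. Both extremes were L-Pha high libraries, and the log2 fold change of −0.062 (SE 0.445) became 0.073 when libraries were scaled by their totals alone.

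Of the light-strand tRNAs, 3 had enough counts to be tested. mt-Tq, for glutamine, stood at 28.0, 20.4 and 19.2 CPM in L-Pha low and at 20.1, 21.0 and 33.1 CPM in L-Pha high, a log2 fold change of 0.13 (SE 0.301). mt-Ta, for alanine, stood at 0.965, 3.45 and 10.7 CPM in L-Pha low and at 5.29, 7.19 and 8.28 CPM in L-Pha high, a log2 fold change of 0.47 (SE 0.612). The 3 libraries of L-Pha high lay inside the wide range of L-Pha low. mt-Tp, for proline, stood at 5.79, 4.14 and 4.07 CPM in L-Pha low and at 3.18, 2.69 and 6.62 CPM in L-Pha high, a log2 fold change of −0.18 (SE 0.495). The 9 light-strand members together took 0.163%, 0.156% and 0.363% of mitochondrial counts in L-Pha low 1, 2 and 3, against 0.169%, 0.368% and 0.377% in L-Pha high 1, 2 and 3. Both groups thus held low and high libraries.

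Much of the mitochondrial coding sequence has a near-identical copy in the nuclear genome. A block on the minus strand of chromosome 1 carries 7 annotated copies, and reads that align equally well in both places were counted in both, as the authors counted multi-mapped reads, per the file header. Gm28437 (chr1:24613189-24613971) was identical to mt-Co3 except for the last base, and Gm28438 (chr1:24612775-24613119) differed from mt-Nd3 by T3C, counted from 1 at the 5′ end of mt-Nd3, and covers 345 of its 348 bases, without the last 3. The start of mt-Nd3 and the end of mt-Co3 are shown beside the copies, with the base that differs or is absent from the copy in capitals. They lie at MT:9459-9518 and chr1:24613060-24613119, and at MT:9331-9390 and chr1:24613189-24613247.
mt-Nd3: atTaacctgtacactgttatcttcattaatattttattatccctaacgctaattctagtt
Gm28438: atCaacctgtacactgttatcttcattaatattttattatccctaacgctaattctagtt
mt-Co3: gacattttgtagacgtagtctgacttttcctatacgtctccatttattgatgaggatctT
Gm28437: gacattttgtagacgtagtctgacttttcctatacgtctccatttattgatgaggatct

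The full-length copies held nearly the same counts as their mitochondrial genes. Gm28437 held 7189, 6941 and 6465 counts in L-Pha low 1, 2 and 3, beside 7186, 6926 and 6429 for mt-Co3, and 6894, 4384 and 4572 in L-Pha high 1, 2 and 3, beside 6880, 4380 and 4554. That was 100.04% to 100.6% of the counts of mt-Co3. Gm28438 held 99.9% to 100.9% of the counts of mt-Nd3, Gm28661 99.4% to 99.8% of those of mt-Co2, Gm10925 97.7% to 99.6% of those of mt-Atp6 and Gm10222 91.3% to 101.9% of those of mt-Nd4l. The log2 fold changes followed too: −0.61 for Gm28437, −0.68 for Gm28438, −0.33 for Gm28661, −0.43 for Gm10925 and −0.25 for Gm10222. With counts this alike the table cannot separate the mitochondrial transcripts of these 5 genes from their copies, and the 2 values of a pair are not independent measurements.

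The other 2 copies cover only a piece of their gene. Gm29216 matches the last 483 of the 1545 bases of mt-Co1 with 1 difference (A1066T, counted from 1 at the 5′ end of mt-Co1), and Gm28439 the first 876 of the 1378 bases of mt-Nd4 with none. Gm29216 held 57.4%, 47.6% and 41.4% of the counts of mt-Co1 in L-Pha low 1, 2 and 3, against 54.6%, 46.4% and 42.2% in L-Pha high 1, 2 and 3. The order by library number was the same in both groups. Gm28439, away from the 3′ end, held 10.97% to 19.6% of the counts of mt-Nd4. Together the 7 copies took 0.555% to 1.12% of counts. Leaving out their rows moved no member past the threshold. The shared reads stayed in the counts of the mitochondrial genes in that fit, so it cannot show what those reads add.

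**Figure D4:**
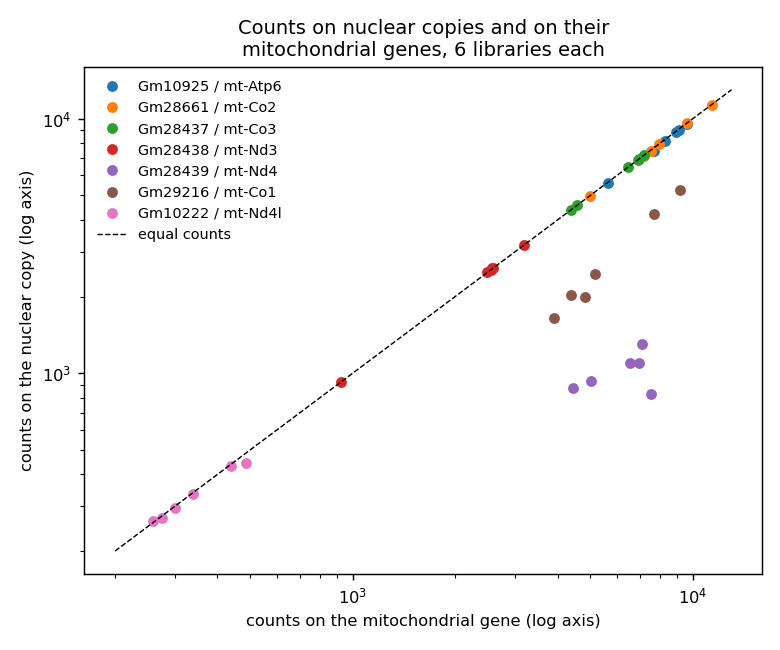
Counts on each of the 7 nuclear copies (log axis) against counts on its mitochondrial gene (log axis), 1 point per library and 6 per pair; the dashed line marks equal counts. Full-length copies lie on the line, while Gm29216 (41.4% to 57.4% of mt-Co1) and Gm28439 (10.97% to 19.6% of mt-Nd4) lie below it.

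Nuclear genes for subunits of the same complexes gave a second reading of the respiratory chain. Of 76 such genes, all tested, 0 were called in either direction (1 of all tested genes was called, 0.00894%), 49 had a log2 fold change under 0, and their median was −0.072. Summed nuclear subunits took 1.68% ± 0.137 of counts in L-Pha low and 1.83% ± 0.184 in L-Pha high (SD, n = 3 each), with overlap. After TMM scaling the sums were 16512, 18041 and 17745 CPM in L-Pha low 1, 2 and 3. They were 16006, 17792 and 19042 CPM in L-Pha high 1, 2 and 3, again with overlap. The ratio of mitochondrial protein-coding counts to nuclear subunit counts was 1.29, 0.978 and 1.24 in L-Pha low 1, 2 and 3, against 1.1045, 0.701 and 0.955 in L-Pha high 1, 2 and 3. The groups overlapped, with L-Pha high 2 lowest. By complex, the median log2 fold change of mitochondrial and nuclear subunits was −0.21 and −0.036 for complex I (7 and 36 genes), −0.49 and −0.094 for complex IV (3 and 12 genes) and −0.23 and −0.11 for complex V (2 and 15 genes). For complex III it was −0.15 for mt-Cytb and −0.13 for 9 nuclear genes, and complex II, which has no mitochondrial subunit, had −0.096 over 4 genes. The difference between the genomes was not tested.

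**Figure D5:**
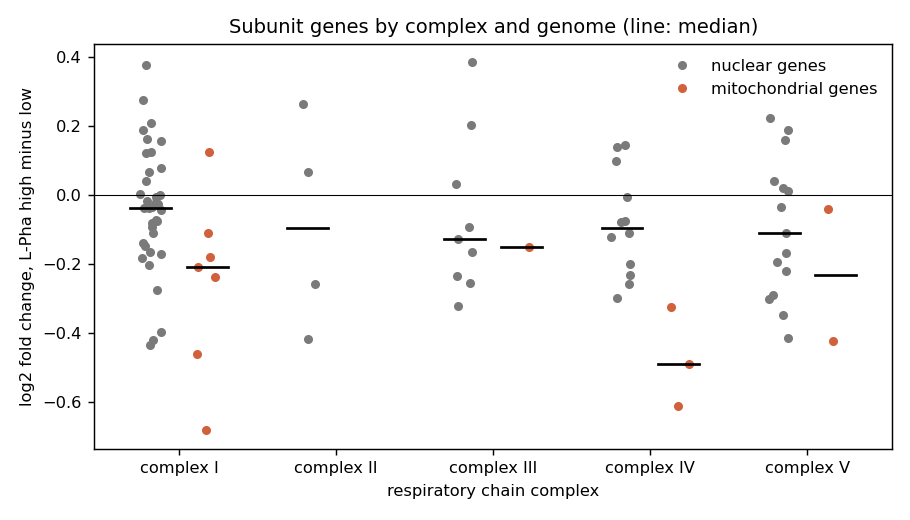
Log2 fold change (L-Pha high minus L-Pha low, edgeR) of each tested subunit gene by respiratory complex, nuclear genes in grey and mitochondrial genes in orange, with a line at the median; sideways spread is only to separate points. The 3 mitochondrial genes of complex IV lie from −0.32 to −0.61, below all 12 nuclear genes of that complex (−0.30 to 0.15). The gap between mt-Co2 (−0.32, SE 0.245) and Cox6a1 (−0.30, SE 0.292) is small beside their SE. Without L-Pha high 2, mt-Co2 is at −0.10.

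Single nuclear subunits varied in both directions without passing the test. Uqcrfs1, the iron-sulphur protein of complex III, averaged 208 CPM in L-Pha low and 271 CPM in L-Pha high (log2 fold change 0.38, SE 0.222), and Uqcrq of the same complex 258 and 206 CPM (−0.32, SE 0.242). Ndufb11 and Ndufs8 of complex I had log2 fold changes of −0.44 and −0.42, Cox6a1 and Ndufa4 of complex IV −0.30 and −0.26, and Atp5g2 and Atp5e of complex V −0.41 and −0.35. In complex II, Sdha had 0.26 and Sdhb −0.26. Of all 76 nuclear subunits, L-Pha high lay below L-Pha low without overlap for 3 (Ndufs8, Sdhb and Atp5e) and above it for 1 (Sdha), against 4.13% and 4.25% of all tested genes.

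Nuclear genes that copy, transcribe, process and translate the mitochondrial genome were followed in lists. Across these and the nuclear subunits, 233 of 247 genes were tested and 0 were called by edgeR in either direction, where 0.00894% of all tested genes were called. An unadjusted p under 0.05 was found for 2 of these 233 genes on the higher side and 1 on the lower side, against 1.84% and 1.97% of all tested genes, and their median was −0.040. Among 15 tested genes of mitochondrial DNA maintenance and transcription, 10 had a log2 fold change under 0 and the median was −0.21. Tfam, which packages the DNA and starts transcription, stood at 29.3, 29.3 and 27.4 CPM in L-Pha low and at 33.1, 37.7 and 29.8 CPM in L-Pha high, a log2 fold change of 0.23 (SE 0.249). Its groups did not overlap, though L-Pha high 3 lay close to L-Pha low. Tk2, a thymidine kinase that supplies nucleotides, had −0.68 (SE 0.392) and Tfb2m, a transcription initiation factor, −0.43 (SE 0.394). Polrmt, the mitochondrial RNA polymerase, had 3 to 11 counts per library and was not tested.

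RNA processing and decay had 21 tested genes with a median of 0.086. Mtpap, the poly(A) polymerase of mitochondria, stood at 8.36, 8.63 and 8.51 CPM in L-Pha low and at 5.03, 5.69 and 3.97 CPM in L-Pha high, a log2 fold change of −0.79 (SE 0.390) without overlap of the groups. These CPM rest on only 12 to 26 counts per library, and the adjusted p was 1.00 by edgeR with Benjamini-Hochberg adjustment. Supv3l1, the helicase of the RNA decay complex, had −0.54 (SE 0.351) and Pnpt1, its exonuclease, 0.17 (SE 0.389). Lrpprc and Slirp form a complex that stabilises mitochondrial mRNAs. Lrpprc stood at 55.9, 70.4 and 135 CPM in L-Pha low and at 60.6, 149.7 and 149 CPM in L-Pha high (0.46, SE 0.369), with overlap, and Slirp had −0.027 (SE 0.231). Elac2, which cuts the 3′ ends of tRNAs, had −0.17 (SE 0.421).

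Translation of the mitochondrial mRNAs was covered by 3 lists. Among 12 tested aminoacyl-tRNA synthetases the median was 0.11, and Fars2, for phenylalanine, stood at 11.3, 13.8 and 15.5 CPM in L-Pha low and at 22.0, 31.7 and 16.2 CPM in L-Pha high (0.79, SE 0.324). L-Pha high 3 was close to L-Pha low 3. Lars2, for leucine, had −0.55 (SE 0.303), with its highest level in L-Pha low 2, the library that was also highest for Gm42418. The translation factors (10 tested) had a median of −0.049, with Tufm, the elongation factor, at −0.66 (SE 0.358) and Mtif3, an initiation factor, at −0.63 (SE 0.427). Mitoribosomal proteins (76 tested) had a median of −0.074, with Mrps18a at −0.68 (SE 0.297) and Mrps6 at 0.62 (SE 0.280).

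Regulators of mitochondrial content and of protein quality gave a similar picture. The 9 biogenesis regulators had a median of 0.026. Myc had a log2 fold change of −0.86 (SE 0.445), Ppargc1b −0.66 (SE 0.424) and Ppargc1a, a coactivator of mitochondrial biogenesis, 0.026 (SE 0.307). The 14 proteases and chaperones had a median of −0.051. Phb2, a scaffold of the inner membrane, averaged 246 CPM in L-Pha low and 303 CPM in L-Pha high without overlap (0.30, SE 0.204), and Afg3l2, a protease subunit, had 0.37 (SE 0.273).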

How the data were processed

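The values are gene counts of 6 libraries, 3 L-Pha low and 3 L-Pha high, deposited by the authors as whole-number counts per gene. Per the file header, featureCounts 1.5.0-p3 counted reads on the sense strand over Ensembl 78 GRCm38 genes, with multi-mapped reads counted at each place and reads assigned to every gene they overlap. The submitters' processing notes name HISAT2 2.1.0, Subread 1.5.0, limma, cutadapt 1.7, FastQC 0.11.5, bcl2fastq 2.17.1.14 and the build hg19, which does not match the mouse gene coordinates in the count table. The authors also deposited a log2 expression table of 14293 symbols, used only as an alternative; it holds 32 of the 37 members. Multiple counting raises counts where nuclear copies exist and can place 1 read in neighbouring genes.

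Members and gene lists were chosen with earlier results of these data known. Counts were tested with edgeR 4.0.16 in R 4.3.3 (TMM scaling, filterByExpr, robust quasi-likelihood fit, group only, all 6 libraries). Benjamini-Hochberg adjustment ran over all genes tested, with a threshold of 0.05. The test was checked on simulated data whose changes were larger than those of the members. That check does not show how often differences of the members' size would be found. CPM are counts scaled by TMM-adjusted library totals. A log2 fold change is the fitted edgeR value. Shares of counts carry exact 95% binomial intervals. Symbols and sequences came from GENCODE M21 on GRCm38, and differences between sequences from Biopython 1.88 alignments; further nuclear matches were searched with blastn 2.17.0. Named in the text are all 37 members by class (values per library for rRNA, protein-coding and those tRNA genes with at least 10 counts in at least 3 libraries), the nuclear copies, and from each list the 2 tested genes with the smallest p plus Polrmt, Tfam, Lrpprc, Slirp, Mtpap, Pnpt1, Elac2 and Ppargc1a. Marker lists entered as shares, some with list counts added after the values were seen; B cell, neutrophil, stroma, endothelium and NK genes each summed to at most 0.00892% of counts. Alternatives were DESeq2 1.42.0 size factors and test, library totals alone, totals without mitochondrial genes or Gm42418, no filter or 5 CPM in 3 libraries, limma 3.58.1 (voom, and on the log2 table), no nuclear copies, a replicate block, no libraries numbered 3, and each library left out in turn.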

Additional observations from a re-analysis of the deposited data

How the results depend on the processing

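No mitochondrial transcript was called in either direction under any of the 18 alternatives, and neither was any tested gene of the pathway lists. Of 25 tested members, 13 kept the sign of their log2 fold change under every alternative run. Among them were mt-Nd1, mt-Atp6, mt-Co3 and mt-Tg, whose groups did not overlap. Leaving out libraries could hardly reverse the sign of these genes, so the fits without a library say little about it. Scaling by library totals alone moved the median of all genes to 0.10; relative to it the members' median was −0.21. Under that scaling mt-Tv had 0.073, mt-Atp8 0.072 and Slirp 0.063. Without both libraries numbered 3, mt-Tq had −0.23, mt-Nd2 0.023, Gm28439 −0.063 and Slirp 0.091, and the members' median was −0.35; on the deposited log2 table Slirp had 0.026. With each library left out in turn, log2 fold changes crossed 0 for mt-Rnr2 (−0.38 to 0.051), mt-Nd2 (−0.37 to 0.21), mt-Nd4 (−0.38 to 0.063), mt-Nd4l (−0.64 to 0.056), mt-Nd6 (−0.22 to 0.85), mt-Cytb (−0.35 to 0.032) and mt-Atp8 (−0.43 to 0.18). The same held for mt-Tv (−0.54 to 0.31), mt-Tq (−0.14 to 0.32), mt-Ta (−0.032 to 1.64), mt-Tt (−0.73 to 0.25) and mt-Tp (−0.66 to 0.035), and for Gm28439 (−0.037 to 0.13), Gm10222 (−0.62 to 0.011), Slirp (−0.19 to 0.15), Pnpt1 (−0.016 to 0.50), Elac2 (−0.37 to 0.22) and Ppargc1a (−0.21 to 0.43). The cause was not tested. Without L-Pha low 3, 18 of 26 tested members had a log2 fold change under 0 and 8 an unadjusted p under 0.05, 5 of them lower; with L-Pha high 1 left out, 7 of 25 did, all lower. With no count filter, 37 members were tested and the smallest adjusted p was 0.587 by edgeR with Benjamini-Hochberg adjustment. Over all genes, calls numbered 22 lower and 8 higher by DESeq2 (0.197% and 0.0715%), and 27 lower and 20 higher with no filter. Libraries with the same number deviated together with correlations of 0.368, 0.082 and 0.467. Each L-Pha high library correlated best with the L-Pha low library of its own number. L-Pha low 2 in turn correlated better with L-Pha high 1 (0.126) than with its own number. The labels do not state pairs, so the number entered only as an alternative. With the number as a replicate block, edgeR called 23 of 11183 genes lower and 20 higher, 0 of them members. In that fit 7 of 25 members had an unadjusted p under 0.05, all 7 lower. The share of all genes under that bound was not computed there either, and more genes were called than without the block. The members' median was −0.24 and their smallest adjusted p 0.167 with Benjamini-Hochberg adjustment. Counts limit the tRNA genes most, of which 12 had too few for a test.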

Other observations

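Some ratios between counts of mitochondrial genes followed the library number more than the L-Pha group, given here as values with no test. Where the genes overlap, as mt-Atp8 and mt-Atp6 or mt-Nd4l and mt-Nd4 do, the ratio is not one of separate transcripts. The ratio of mt-Rnr2 to mt-Rnr1 counts was 5.75, 3.70 and 3.62 in L-Pha low 1, 2 and 3, against 5.68, 4.66 and 3.14 in L-Pha high 1, 2 and 3. The ratio of rRNA to protein-coding counts was 1.07, 1.02 and 0.633 in L-Pha low, against 1.07, 0.992 and 0.915 in L-Pha high, lowest in both libraries numbered 3. mt-Atp8 counts were 4.90%, 5.01% and 6.56% of mt-Atp6 counts in L-Pha low, against 5.62%, 6.16% and 9.40% in L-Pha high, highest in the libraries numbered 3, which also had the lowest share of T cell genes and the highest of melanoma genes. mt-Nd4l counts were 4.25% to 6.95% of mt-Nd4 counts.

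A search of GENCODE M21 transcripts, added after the values were seen, found 4 further nuclear genes that match mitochondrial sequence at 95.2% to 97.6% identity over at least 100 bases. Gm13340 (chr2:22588103-22589647), which matches all 1545 bases of mt-Co1, held 543 to 957 counts, or 9.53% to 15.04% of the counts of mt-Co1. Gm13341 (chr2:22587291-22587962) held 10.5% to 16.9% of the counts of mt-Co2, Gm13339 (chr2:22590024-22590533) 4.98% to 8.21% of those of mt-Nd2, and Gm4076 (chr13:85126999-85127514) 2.08% to 8.19% of those of mt-Nd5. The less alike copies thus held smaller shares than the full-length copies on chromosome 1. Among the red cell genes, named singly after their values were seen, Hbb-bs had a log2 fold change of −0.78 (SE 0.328), Hba-a2 −0.70 (SE 0.295), Hba-a1 −0.69 (SE 0.279) and Hbb-bt −0.50 (SE 0.379), and none passed the test across all genes by edgeR with Benjamini-Hochberg adjustment (adjusted p 1.00 for each). All 4 were lowest in L-Pha high 2. The near-identical Hba-a1 and Hba-a2 can share reads, so their values are uncertain.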
